A study of Homo sapiens with 15 samples.

Results

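Transcript levels of 31 genes of the Hippo pathway and of the transcriptional output of its coactivator YAP were examined in MHCC-97H cells, a human line established from hepatocellular carcinoma. The 31 genes were taken by symbol from a fixed list of names, with no cut on their measured values, and all 31 matched a row of the 19143 rows in the deposited count table. They comprise 7 coactivators and TEAD-type factors (YAP1, WWTR1, TEAD1 to TEAD4 and VGLL4), 8 genes of the kinase cassette (STK3, STK4, SAV1, LATS1, LATS2, MOB1A, MOB1B and NF2), 3 angiomotins (AMOT, AMOTL1 and AMOTL2) and 13 genes listed as YAP targets (CCN1, CCN2, ANKRD1, AJUBA, FJX1, MYOF, AXL, CRIM1, F3, PTPN14, ARHGEF17, DLC1 and NT5E). RNA sequencing gave 15 libraries, 3 in each of 5 groups. A first experiment of 9 libraries compared the line in a 2D model, in a 3D model and in an animal model. A second round of 6 libraries compared untreated cells of the 3D model (3D control) with cells of the 3D model after heat stress (3D heat). All groups carry the same parental line with no stated edit or transgene. The labels do not give the temperature, the duration of heating, the 3D material, the host animal, its age or the site of the tumours. Biological replicates are numbered there, but not stated to be different cultures or different animals. The p-values therefore reflect the spread between libraries alone, which may be technical.

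In the Hippo pathway the kinases MST1 and MST2 (encoded by STK4 and STK3), with the scaffold SAV1, activate the kinases LATS1 and LATS2 and their MOB1 cofactors, and NF2 acts upstream at the membrane. Active LATS kinases phosphorylate YAP and its paralogue TAZ (encoded by WWTR1), which are then held in the cytoplasm or degraded. Unphosphorylated YAP and TAZ enter the nucleus, bind TEAD factors and raise transcription of genes such as CCN1, CCN2 and ANKRD1. The pathway responds to cell density, attachment and mechanical tension, and it limits organ size in the liver, where YAP is often active in hepatocellular carcinoma. Since this control acts mostly on the YAP and TAZ proteins, transcript counts measure the pathway's components and output genes and not its activity.

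TEAD factors bind the letters GGAATG, read as CATTCC on the other strand. The 250 bases before annotated transcription starts were searched for these letters on both strands in the RefSeq promoters of build GRCh38.p14. Both spellings are the same motif on opposite strands and cannot overlap each other. The table held a promoter for 24 of the 31 genes, in 36 windows. A match lay in 7 of the 36 windows (19.4%), against 4175 of 35116 windows of the same length over all genes (11.9%), and 2 of the 36 (5.56%) had more than 1 match, against 330 of all windows (0.94%). The 7 genes with a match were PTPN14, AMOTL2, CCN2, ANKRD1, YAP1, AJUBA and AXL. The windows below belong to genes that DESeq2, though not edgeR, called after heat: CCN2, ANKRD1, AMOTL2 and AJUBA on the higher side, and AXL, MYOF and NT5E on the lower side. WWTR1, also on the lower side, had 2 windows without a match, and CCN1 was not in the table. Each is written 5′ to 3′ on the strand of the gene and ends just before the start, with matches in capitals. They cover chr6:131951373-131951622 (minus strand) for CCN2, chr10:90921088-90921337 (minus) for ANKRD1, chr3:134374448-134374697 (minus) for AMOTL2, chr14:22976843-22977092 (minus) for AJUBA, chr19:41226505-41226754 (plus) for AXL, chr10:93482335-93482584 (minus) for MYOF and chr6:85449833-85450082 (plus) for NT5E. AMOTL2, AJUBA and AXL each have a second listed start with no match, which is not shown.
CCN2: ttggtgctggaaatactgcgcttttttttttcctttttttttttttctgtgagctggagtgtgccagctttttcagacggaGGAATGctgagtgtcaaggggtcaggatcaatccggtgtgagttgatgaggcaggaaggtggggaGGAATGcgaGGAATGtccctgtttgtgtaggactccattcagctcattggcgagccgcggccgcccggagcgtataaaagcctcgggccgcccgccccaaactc
ANKRD1: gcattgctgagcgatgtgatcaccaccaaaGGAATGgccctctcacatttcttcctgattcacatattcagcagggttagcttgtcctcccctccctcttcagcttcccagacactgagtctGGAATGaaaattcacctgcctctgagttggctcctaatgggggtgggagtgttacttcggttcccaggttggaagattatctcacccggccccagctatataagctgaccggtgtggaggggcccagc
AMOTL2: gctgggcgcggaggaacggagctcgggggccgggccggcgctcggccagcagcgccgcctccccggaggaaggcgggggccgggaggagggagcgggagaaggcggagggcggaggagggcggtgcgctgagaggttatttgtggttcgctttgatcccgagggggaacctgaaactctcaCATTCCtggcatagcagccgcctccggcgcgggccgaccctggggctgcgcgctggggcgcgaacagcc
AJUBA: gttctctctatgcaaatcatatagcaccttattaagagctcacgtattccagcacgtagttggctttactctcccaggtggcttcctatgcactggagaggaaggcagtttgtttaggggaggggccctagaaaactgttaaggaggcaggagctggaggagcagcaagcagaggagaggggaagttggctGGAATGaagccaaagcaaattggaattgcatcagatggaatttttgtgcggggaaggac
AXL: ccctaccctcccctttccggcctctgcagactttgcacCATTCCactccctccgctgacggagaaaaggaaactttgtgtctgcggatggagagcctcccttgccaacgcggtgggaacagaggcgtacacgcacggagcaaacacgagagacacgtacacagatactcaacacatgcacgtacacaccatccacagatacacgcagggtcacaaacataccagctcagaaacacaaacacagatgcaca
MYOF: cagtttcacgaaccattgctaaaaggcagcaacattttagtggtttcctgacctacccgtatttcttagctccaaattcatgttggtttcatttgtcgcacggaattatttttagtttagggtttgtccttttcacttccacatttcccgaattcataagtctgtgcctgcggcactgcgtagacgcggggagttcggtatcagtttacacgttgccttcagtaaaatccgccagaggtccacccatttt
NT5E: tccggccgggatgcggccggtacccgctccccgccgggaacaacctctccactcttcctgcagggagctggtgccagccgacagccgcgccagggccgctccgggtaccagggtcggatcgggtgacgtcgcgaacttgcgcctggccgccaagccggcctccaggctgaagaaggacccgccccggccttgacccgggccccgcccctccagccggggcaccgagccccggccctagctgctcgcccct
CCN2 had 3 matches, which began 169, 104 and 95 bases before its start. ANKRD1 had 2, at 220 and 128 bases. Single matches lay 69 bases before the AMOTL2 start, 59 bases before the AJUBA start and 212 bases before the AXL start shown. The windows of MYOF and NT5E held none. A match is a description of letters and not a binding site, and no match says only that these letters are not in the window.

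Libraries held 12605539 to 18634295 counts. Levels are given in CPM, the usual scaling of counts to library size, here with TMM factors over the 15 libraries. A gene was called where edgeR's quasi-likelihood test gave a Benjamini-Hochberg adjusted p below 0.05 over all genes tested. Each library was set against the mean of the 2D libraries, and a 2D library against the mean of the other 2D libraries. In 3 libraries (heat replicate 1 and replicates 1 and 2 of the 3D group) a gene's difference from that mean followed its GC content. Rank correlations across genes were 0.61 to 0.816 in them, against -0.214 to 0.228 in the other 12. The TMM factors of these 3 libraries were 0.6548 to 0.7379, and those of the others 0.9797 to 1.283. The cause was not tested, and results on these groups are given with and without these libraries. KRT8 and KRT18, keratins of hepatocyte-derived cells, stood at 3010 and 695 CPM in the 2D libraries, whereas AFP and ALB, alpha-fetoprotein and albumin of the liver lineage, stood at only 2.0 and 2.36 CPM and EPCAM at 0.355 CPM. The animal libraries held higher levels of fibroblast and pericyte markers, with a summed 167 to 489 CPM for the 11 genes against 69.1 to 72.9 CPM in 2D. Removal of host reads is not stated. In bulk RNA, fewer cells of a type and less RNA per cell cannot be told apart.

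All 3 layers of the pathway were expressed in the 2D libraries. Per kilobase of transcript, MYOF, a membrane repair protein of the ferlin family, had the highest level of the 31 genes (76.3 ± 2.74 CPM per kilobase, SD, n = 3). The coactivator genes WWTR1 and YAP1 stood at 32.6 ± 1.09 and 25.5 ± 0.311 CPM per kilobase (SD, n = 3), so that the TAZ transcript lay above the YAP transcript beyond the spread of both. The LATS kinase transcripts were low on the same scale, at 2.81 ± 0.204 for LATS1 and 1.76 ± 0.19 CPM per kilobase for LATS2 (SD, n = 3). Of the direct YAP targets, CCN2 stood at 9.63 ± 0.293, CCN1 at 7.39 ± 0.128 and ANKRD1 at 3.39 ± 0.698 CPM per kilobase (SD, n = 3). By length of each gene's longest coding transcript, TEAD2 gave 31.9 to 34.4% of the summed TEAD signal in the 2D libraries. TEAD4 gave 26.8 to 29.8%, TEAD1 24.4 to 25.3% and TEAD3 13.5 to 14.7%. The 4 ranges did not overlap, and those of TEAD1 and TEAD4 lay closest together. Their order depends on the length taken, 8477 bases for TEAD1 and 2440 for TEAD2. Before division by length TEAD1 was highest, at 102 CPM against 39.7 for TEAD2, 22.9 for TEAD4 and 20.4 for TEAD3.

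Of the 31 genes, 28 had enough reads to be tested in each of the 4 comparisons. AMOT, the founding angiomotin, had 4 reads in all 15 libraries together, 2 in the animal group and 2 in the 3D control group. DLC1 had 20 reads, of which 12 lay in the animal libraries. AMOT and DLC1 were at or near the level of 3 reads, 0.1451 to 0.2865 CPM depending on the library, and no difference was read from them. ARHGEF17 had 122 reads, with 0.62, 1.31 and 1.04 CPM in 3D against 0.426, 0.264 and 0.214 CPM in 2D, so that these groups did not overlap. ARHGEF17 did not pass the filter on low counts with all libraries. It was tested in the fits with no filter on low counts. It was also tested without 3D replicates 1 and 2, with a log2 fold change against 2D of 1.76. That value rests on 3D replicate 3 alone and on 17 reads in the 2D group. AMOTL1 was tested but low, at 0.465 to 2.79 CPM in every library, and passed in no comparison.

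**Figure D1:**
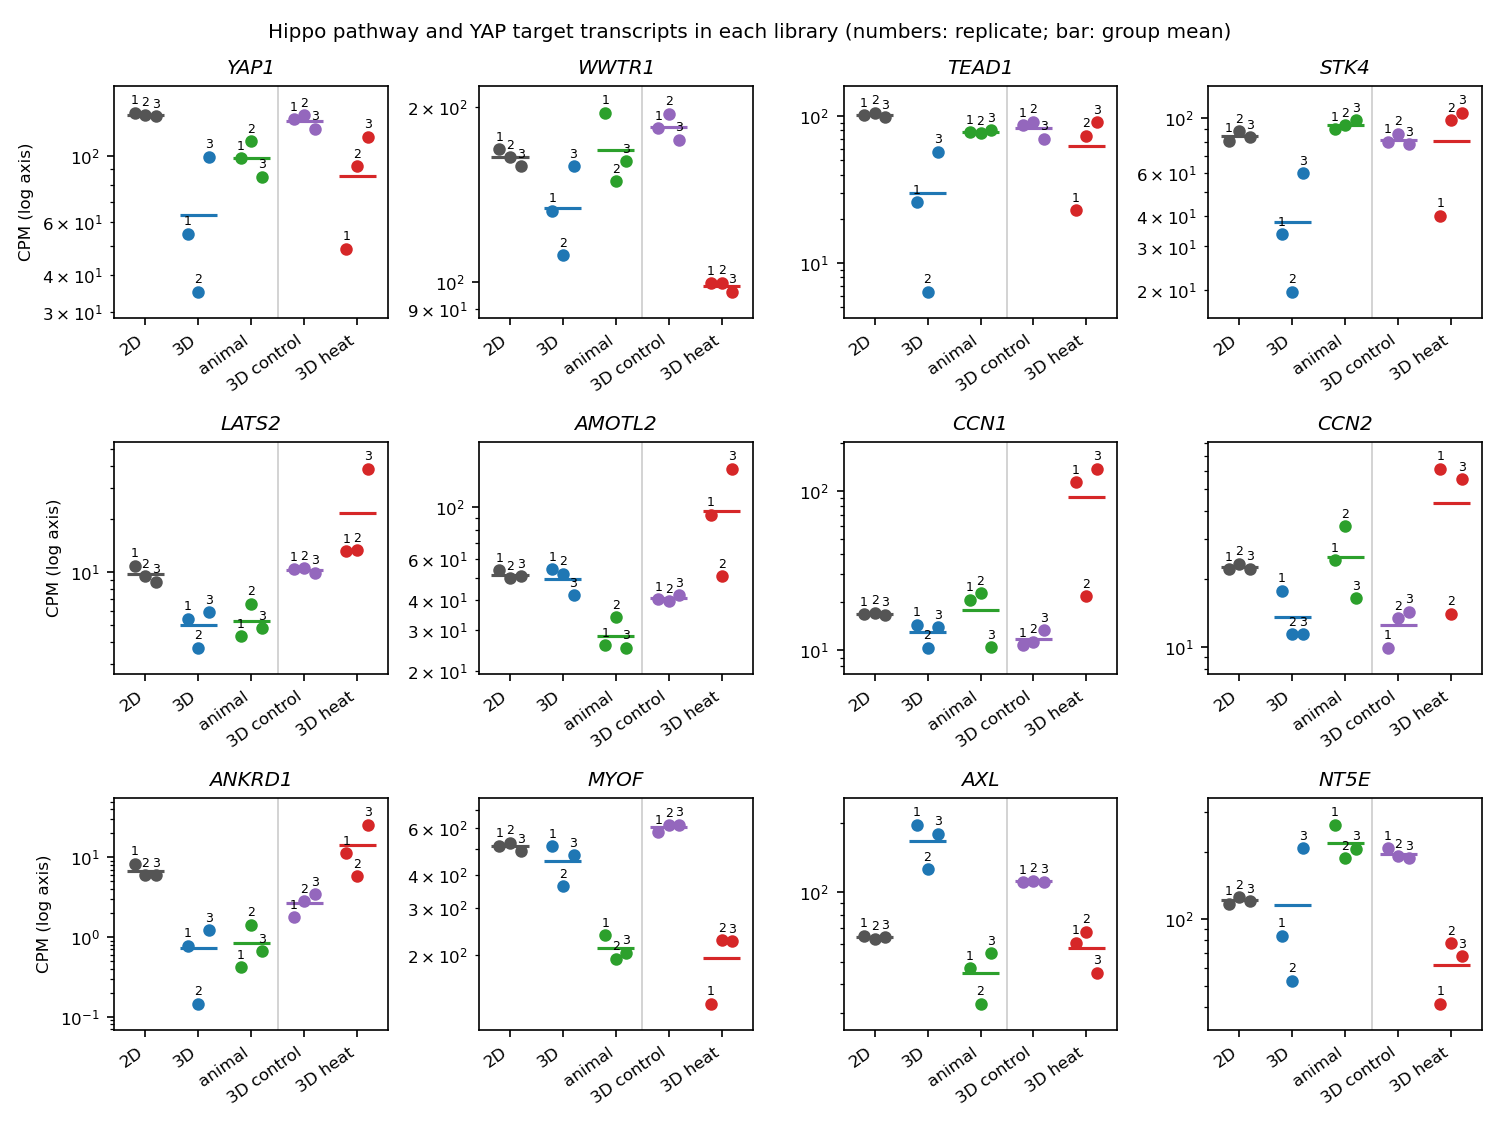
TMM-scaled CPM (log axis) of 12 of the genes in each of the 15 libraries; points are libraries, numbered by replicate, the bar is the mean of 3, and the vertical line parts the 2 rounds. CCN1 stands at 113 and 137 CPM in heat replicates 1 and 3, against 10.8 to 13.3 CPM in the 3D control libraries, while heat replicate 2 lies at 21.9 CPM.

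The first comparison asks what the 3D model changes against the 2D model. Most of the members that passed were lower in 3D, and AXL, a receptor tyrosine kinase of the TAM family, was the exception. Of 28 tested genes, 1 was called higher, which is 3.57% against 20% of all genes tested, and 6 were called lower (YAP1, STK4, LATS2, ANKRD1, FJX1 and PTPN14), which is 21.4% against 12.9%. The median log2 fold change of the 28 was -0.35, and that of all genes 0.03. In 13 of the 28 every 3D library lay below every 2D library (46.4%, against 25.2% of all genes), and in 1 every 3D library lay above (3.57%, against 24.9%). Among all 28, the log2 fold change followed transcript GC content, with a rank correlation of 0.598 across these genes, which share the same libraries. Across 29 genes it was -0.198 without 3D replicates 1 and 2, and the cause of this change was not tested. Without them, 3 members were called higher (SAV1, AXL and NT5E) against 22.9% of all genes, and 8 lower (YAP1, TEAD1, TEAD4, STK4, NF2, ANKRD1, FJX1 and PTPN14) against 23.6%, of 29 tested. That fit takes the spread of the single 3D library left from the 2D and animal groups.

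ANKRD1, a nuclear ankyrin-repeat protein and a classical YAP target, fell the furthest. It stood at 8.31, 5.91 and 5.93 CPM in the 2D libraries and at 0.776, 0.145 and 1.23 CPM in the 3D libraries. All 3D libraries thus lay far below all 2D libraries, and replicate 2 had almost no reads. The log2 fold change was -3.22 ± 0.65 (SE), a 9.31-fold lower level with adjusted p = 0.00776. Without 3D replicates 1 and 2 it was -2.45 (adjusted p = 0.011). CCN1 and CCN2, secreted matricellular proteins and the best known YAP targets, differed less. CCN2 stood at 22.1, 23.3 and 22.2 CPM in 2D and at 17.8, 11.3 and 11.4 CPM in 3D, a log2 fold change of -0.78 ± 0.304 (SE) that did not pass (adjusted p = 0.0783). CCN1 stood at 16.8, 17.3 and 16.7 CPM in 2D and 14.5, 10.4 and 14.0 CPM in 3D, with adjusted p = 0.308. For both genes the 3D libraries lay below the 2D libraries without overlap.

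AXL was the only member called higher. Its level was 64.8, 63.0 and 64.0 CPM in 2D and 196, 126 and 180 CPM in 3D. The lowest 3D library lay far above the highest 2D library. The log2 fold change was 1.35 ± 0.247 (SE), or 2.55-fold, with adjusted p = 0.00557. Leaving out 3D replicates 1 and 2 gave 1.49 (adjusted p = 0.00122). ANKRD1 and AXL were the 2 members called in the same direction under all 15 alternatives tried. PTPN14, a non-receptor tyrosine phosphatase that binds YAP, stood at 24.4, 25.0 and 24.6 CPM in 2D and 13.2, 6.84 and 12.9 CPM in 3D. Its log2 fold change was -1.20 ± 0.34 (SE, adjusted p = 0.0272). With an offset for GC content and length the PTPN14 call ended (-0.64, adjusted p = 0.0555) and CCN2 was called lower (-1.06, adjusted p = 0.0122). A replicate block also ended the PTPN14 call (adjusted p = 0.0611). FJX1, encoding a Golgi-secreted homologue of the fly protein four-jointed, stood at 6.61, 6.65 and 6.03 CPM in 2D and 3.80, 4.29 and 1.90 CPM in 3D, and fell by 1.0 ± 0.33 on the log2 scale (SE, adjusted p = 0.0453). The FJX1 call ended with median-ratio scaling, no filter, only the 2 groups or a replicate block (adjusted p = 0.0757, 0.0539, 0.103 and 0.0773). For PTPN14 and FJX1 no 3D library reached the 2D range.

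YAP1 itself was lower in 3D. It stood at 139, 137 and 136 CPM in 2D and at 54.9, 35.1 and 99.4 CPM in 3D, a log2 fold change of -1.14 ± 0.35 (SE, adjusted p = 0.0348). Replicate 3, the 3D library without the GC shift, was the nearest to the 2D level, and without replicates 1 and 2 the log2 fold change was -0.47 (adjusted p = 0.0274). STK4 showed the same arrangement, with 81.1, 88.6 and 84.0 CPM in 2D and 33.7, 19.6 and 59.7 CPM in 3D. Its log2 fold change was -1.19 ± 0.358 (SE, adjusted p = 0.0334) with all libraries and -0.51 (adjusted p = 0.0046) without the 2. LATS2 stood at 10.9, 9.50 and 8.81 CPM in 2D and 5.43, 3.71 and 5.89 CPM in 3D, and its call ended without the 2 libraries (log2 fold change -0.99, adjusted p = 0.029, against -0.73, adjusted p = 0.0623). It also ended with only the 2 groups (adjusted p = 0.0573) and with a replicate block (adjusted p = 0.0651). The YAP1 call also ended with upper-quartile scaling (-1.15, adjusted p = 0.0536), in the fit of only these 2 groups (-1.12, adjusted p = 0.0872) and with a replicate block (-1.22, adjusted p = 0.0521), with folds about as large. That of STK4 ended with upper-quartile scaling (-1.19, adjusted p = 0.0517) and with only the 2 groups (-1.16, adjusted p = 0.0891). Without 3D replicate 1, or without any single 2D library, 1 of the 6 lower calls was left, that of ANKRD1.

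The TEAD genes moved apart from each other in the libraries with the GC shift. TEAD1 stood at 102, 105 and 98.6 CPM in 2D and at 26.1, 6.40 and 57.3 CPM in 3D. Its log2 fold change of -1.78 ± 0.607 (SE) missed edgeR's threshold narrowly with all libraries (adjusted p = 0.0507). It passed with all libraries in DESeq2 (adjusted p = 0.00659), and in edgeR with median-ratio scaling (0.0428), no filter (0.0481), a replicate block (0.0497) or the offset for GC content and length (-1.08, adjusted p = 0.0177). It was -0.84 without replicates 1 and 2 (adjusted p = 0.000364). TEAD2 stood at 38.3, 41.3 and 39.5 CPM in 2D and 76.5, 163 and 31.6 CPM in 3D, so that replicates 1 and 2 lay above 2D and replicate 3 below. TEAD4 gave a log2 fold change of 0.07 with all libraries and -1.40 (adjusted p = 0.00031) without replicates 1 and 2. The share of TEAD1 in the summed TEAD signal per kilobase was 4.96, 0.712 and 22.8% in the 3D libraries. Transcripts of TEAD1 and TEAD2 differ in GC content, 41.3% against 58.4%. WWTR1 did not pass, with 169, 164 and 158 CPM in 2D, 133, 111 and 158 CPM in 3D and adjusted p = 0.225.

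**Figure D2:**
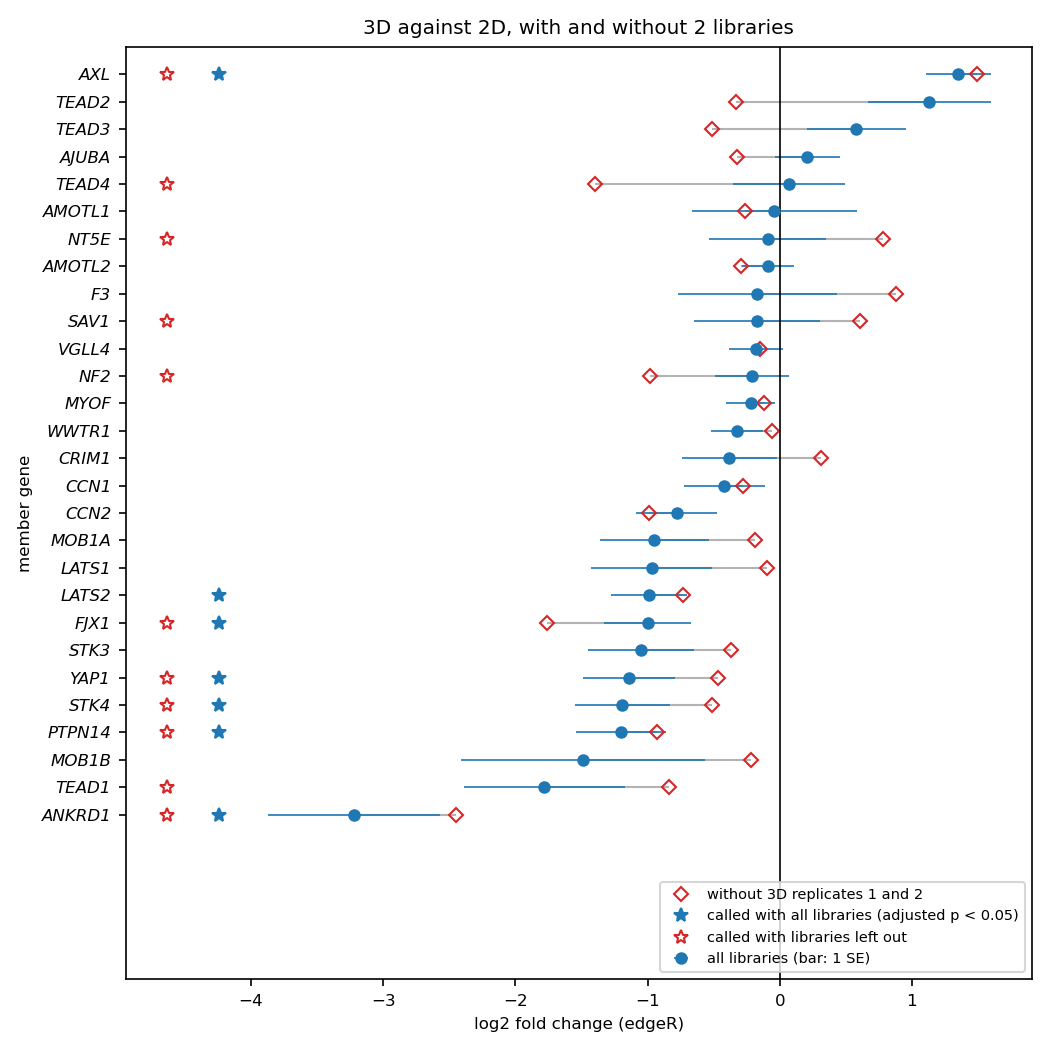
Log2 fold change (edgeR) of the 28 tested genes in 3D against 2D; filled circles with bars of 1 SE use all 9 libraries of the round, open diamonds leave out 3D replicates 1 and 2, and stars at the left mark calls in each fit. AXL at 1.35 and ANKRD1 at -3.22 hold their side in both fits, whereas TEAD4 moves from 0.07 to -1.40.

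The animal model was next set against the 2D model. With all 3 groups in the fit, edgeR called 0 members higher and 5 lower. The 5 called lower were AMOTL2, ANKRD1, FJX1, MYOF and PTPN14, 17.9% of the 28 tested against 4.25% of all genes, and the 0 called higher stand beside 7.78% of all genes. At an unadjusted p below 0.05, edgeR gave 1 higher (F3) and 6 lower, beside 15.2% and 11.4% of all genes, and DESeq2 called 1 higher (F3) and 6 lower, beside 11.2% and 7.86%. The median log2 fold change was -0.33, and that of all genes 0.03. In 16 of the 28 every animal library lay below every 2D library (57.1%, against 32.8% of all genes), and in 5 every one lay above (17.9%, against 33.7%). This fit shares its estimate of the spread with the 3D libraries. In the fit of only the animal and 2D groups, 5 members were called higher (SAV1, LATS1, CRIM1, F3 and NT5E) and 16 lower, 17.9% and 57.1% of the 28, against 29.5% and 27.9% of all genes. The animal and the 3D groups were compared with the same 2D libraries, so that those comparisons are not independent of each other.

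MYOF and FJX1 were called lower under all 14 alternatives. MYOF stood at 516, 529 and 493 CPM in 2D and at 238, 194 and 205 CPM in the animal libraries. The animal libraries all lay under the lowest 2D library by a wide margin. The log2 fold change was -1.27 ± 0.191 (SE), a 2.41-fold lower level with adjusted p = 0.00356. FJX1 stood at 6.61, 6.65 and 6.03 CPM in 2D and at 1.20, 0.884 and 1.38 CPM in the animal libraries, a log2 fold change of -2.46 ± 0.353 (SE, adjusted p = 0.00292). ANKRD1 was again low, at 0.421, 1.43 and 0.660 CPM, with a log2 fold change of -3.0 ± 0.639 (SE, adjusted p = 0.0173). PTPN14 stood at 6.49, 11.4 and 6.12 CPM against 24.4 to 25.0 CPM in 2D, and fell by 1.63 ± 0.344 on the log2 scale (SE, adjusted p = 0.0169). AMOTL2, an angiomotin that binds YAP and is itself a known YAP target, stood at 53.8, 49.6 and 50.6 CPM in 2D and 25.9, 33.9 and 25.2 CPM in the animal libraries (log2 fold change -0.86 ± 0.197, SE, adjusted p = 0.0229). The calls of ANKRD1, PTPN14 and AMOTL2 ended without animal replicate 1, without animal replicate 3 and without any one of the 2D libraries.

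CCN1 and CCN2 did not follow ANKRD1 in the animal libraries. CCN2 stood at 24.2, 34.2 and 16.4 CPM, around the 2D level of 22.1 to 23.3 CPM, with a log2 fold change of 0.15 ± 0.301 (SE, adjusted p = 0.82). CCN1 stood at 20.7, 22.8 and 10.4 CPM, with a log2 fold change of 0.09 ± 0.306 (SE, adjusted p = 0.899). Both genes had their lowest animal value in replicate 3. F3, which encodes tissue factor, the initiator of coagulation, stood at 15.7, 18.0 and 15.5 CPM in 2D and 33.4, 66.7 and 42.6 CPM in the animal libraries. Its log2 fold change of 1.54 ± 0.612 (SE) did not pass (adjusted p = 0.146), though the groups did not overlap. NT5E, the ecto-5′-nucleotidase CD73, stood at 117, 125 and 120 CPM in 2D and 264, 187 and 206 CPM in the animal libraries (log2 fold change 0.86, adjusted p = 0.262 with all 3 groups and 0.00078 with only these 2). Fibroblast markers moved with this comparison: COL1A1 stood at 141 ± 94.1 CPM in the animal libraries against 4.07 ± 0.156 CPM in 2D (SD, n = 3), and COL3A1 at 36.5 ± 25.7 against 0.726 ± 0.106 CPM. Of the 11 fibroblast and pericyte markers, 7 were tested and 5 were called higher. The endothelial markers summed to 43.9 to 66.1 CPM against 47 to 59.3 CPM in 2D, most of it ESAM, with CDH5 at 0.457 CPM. Of 3 endothelial markers tested 2 were called higher, KDR (7.98 against 1.1 CPM) and TEK (1.13 against 0.195 CPM). The leukocyte markers summed to 141 to 198 CPM against 101 to 108 CPM, most of it CD68, with CSF1R at 0.91 CPM and PTPRC at 0.711 CPM. Of 5 leukocyte markers tested 3 were called higher, LYZ (5.76 against 0.0353 CPM), CD163 (4.86 against 0.761 CPM) and ITGAM (11.6 against 3.4 CPM). In the 3D libraries the leukocyte markers summed to 385 to 485 CPM, above the animal libraries. Of the 5 tested in 3D against 2D, CD68 and ITGAM were called higher and 0 lower. In animal against 3D, CD163 and LYZ were called higher and CD68 lower. Of 7 tested markers of the hepatocyte-derived line, edgeR called 3 higher, AFP, TTR and ALB (163 against 2.36 CPM), and 0 lower. DESeq2 called APOA1 lower as well. The fit of only the animal and 2D groups called KRT8 and APOA1 lower. TTR was also called higher in 3D against 2D. The part of other cell types in the values of CCN1, CCN2, F3 and NT5E was not tested.

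With all 3 groups in the fit, edgeR called 1 pathway gene in the animal libraries against 2D, AMOTL2, and DESeq2 called LATS2 lower as well. With only the animal and 2D groups, edgeR called 2 of the 17 tested pathway genes higher and 10 lower (11.8% and 58.8%, against 29.5% and 27.9% of all genes). Of the 7 coactivators and TEAD-type factors 0 were called by edgeR or by DESeq2 in the fits of all 3 groups, and 0 had an unadjusted p below 0.05, but 6 of 7 lay below all 2D libraries (85.7%, against 32.8% of all genes). YAP1 stood at 98.2, 112 and 85.2 CPM against 136 to 139 CPM in 2D (log2 fold change -0.48 ± 0.346, SE, adjusted p = 0.434). In the fit of only the animal and 2D groups the YAP1 value passed (adjusted p = 0.00419). WWTR1 stood at 195, 149 and 161 CPM, on both sides of the 2D range, with adjusted p = 0.928. Within the kinase cassette 3 genes lay above and 3 below all 2D libraries (37.5% each, against 33.7% and 32.8% of all genes), and the median log2 fold change was -0.07. LATS1 and LATS2, paralogues with the same role, differed in sign: LATS1 stood at 27.9, 29.8 and 27.0 CPM against 19.3 to 22.1 CPM in 2D, and LATS2 at 4.33, 6.60 and 4.80 CPM against 8.81 to 10.9 CPM. Neither passed edgeR's test with all 3 groups (adjusted p = 0.628 and 0.0779), whereas LATS2 passed in DESeq2 (-0.92, adjusted p = 0.01) and with the offset for GC content and length (-0.90, adjusted p = 0.0172).

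Against the 3D model, the animal libraries had 3 members called higher and 6 called lower. Those higher were STK4, LATS1 and CCN2, 10.7% of the 28 tested against 18.6% of all genes, and those lower were TEAD2, TEAD3, AMOTL2, FJX1, MYOF and AXL, 21.4% against 22.9%. The shares lie near or below those of all genes. MYOF and AXL were called under all 15 alternatives. AXL fell the furthest of the 6, from 196, 126 and 180 CPM in 3D to 47.0, 32.9 and 54.5 CPM in the animal libraries. Its animal values also lay below those of 2D, without passing there (adjusted p = 0.223). The log2 fold change against 3D was -1.87 ± 0.251 (SE), a 3.64-fold lower level with adjusted p = 0.00121. Leaving out 3D replicates 1 and 2 gave -2.01 (adjusted p = 0.000332). MYOF stood at 514, 363 and 475 CPM in 3D and differed by -1.05 ± 0.19 on the log2 scale (SE, adjusted p = 0.00361). CCN2 was higher by 0.92 ± 0.305 (SE, adjusted p = 0.0382), with the lowest animal library inside the 3D range. TEAD2 and TEAD3 differed by -1.48 and -1.29 with all libraries (adjusted p = 0.0334 and 0.0265). These differences were -0.03 and -0.22 (adjusted p = 0.862 and 0.412) once 3D replicates 1 and 2 were left out. The call of FJX1 also ended without them (-0.72, adjusted p = 0.0926). With single libraries left out, the call of STK4 ended without animal replicate 3 or 3D replicate 1, that of LATS1 without any animal library or without 3D replicate 1 or 2, that of CCN2 without animal replicate 1 or 2 or 3D replicate 2, and that of AMOTL2 without animal replicate 1 or 3 or 3D replicate 1. The rank correlation of the 28 log2 fold changes with GC content was -0.76, and -0.306 over 29 genes without those 2 libraries.

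**Figure D3:**
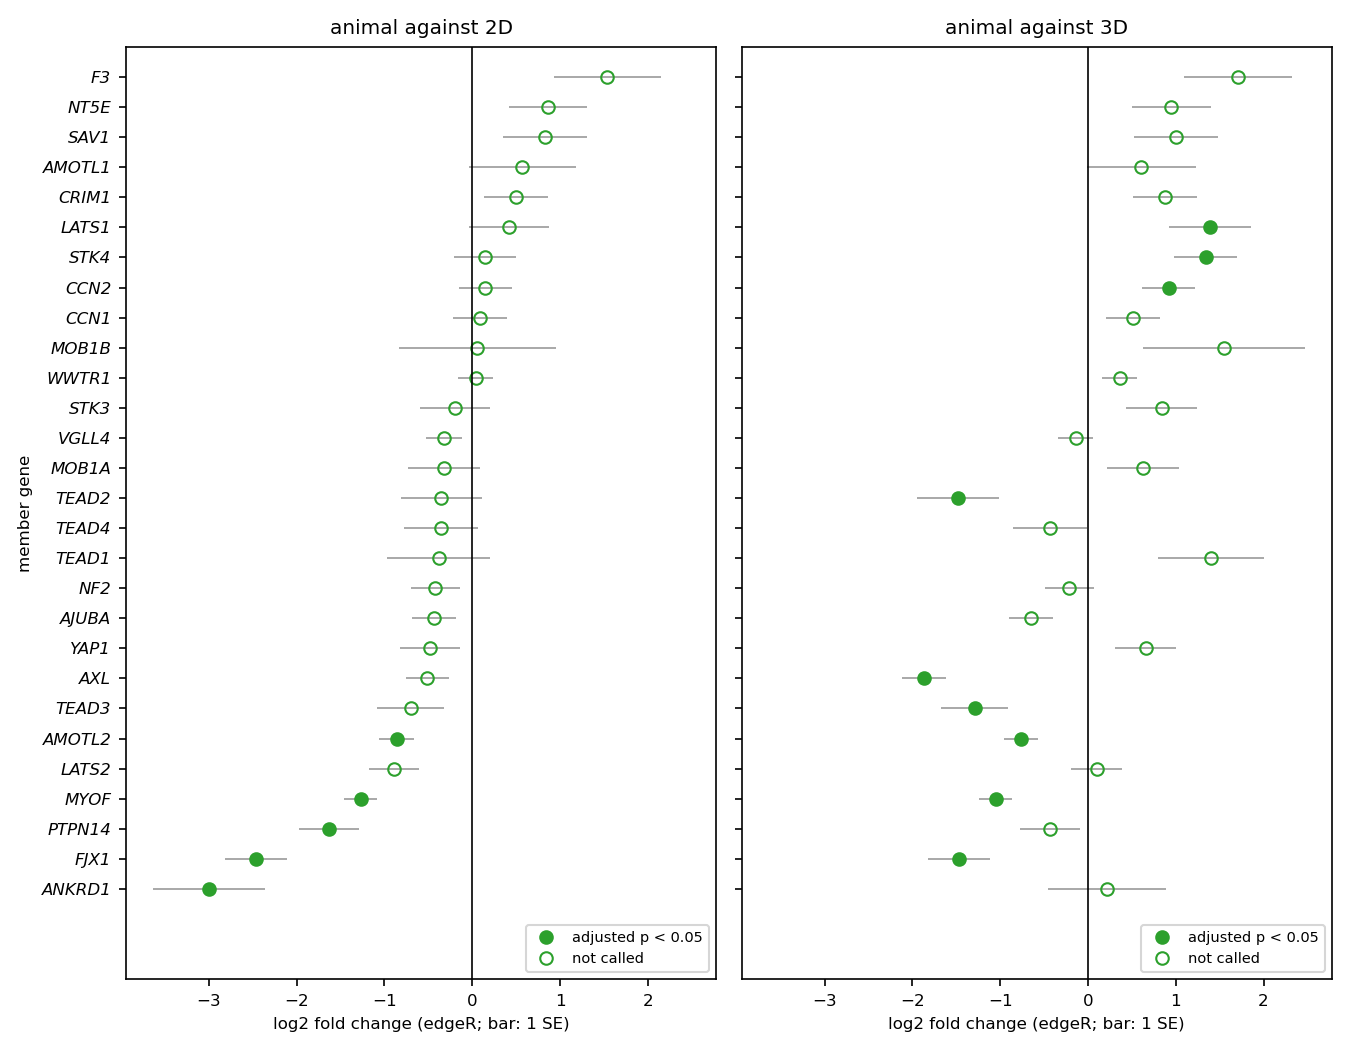
Log2 fold change (edgeR, bar of 1 SE) of the 28 tested genes in the animal libraries against 2D (left) and against 3D (right), in the same gene order; filled circles mark an adjusted p below 0.05. ANKRD1 at -3.0 and FJX1 at -2.46 lie furthest below 2D, while AXL at -1.87 lies furthest below 3D.

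The second round compared 3D cells after heat with untreated 3D cells. No member passed edgeR's test with all libraries. The levels of the known YAP targets CCN1 and ANKRD1 lay above the control range in all 3 heated libraries and that of CCN2 in 2 of the 3, while WWTR1, MYOF, AXL and NT5E lay below it in all 3. Over all genes the same test called only 1 of 12627 higher (0.00792%) and 2 lower (0.0158%). At an unadjusted p below 0.05, edgeR gave 6 members higher (NF2, AMOTL2, CCN1, CCN2, ANKRD1 and AJUBA), of 28 tested, beside 11.8% of all genes, and 4 lower (WWTR1, MYOF, AXL and NT5E), beside 8.97%. DESeq2 called 5 higher (the same list without NF2), beside 6.8% of all genes, and the same 4 lower, beside 5.51%. Every heat library lay above every control library in 7 of 28 (TEAD3, LATS2, NF2, AMOTL2, CCN1, ANKRD1 and AJUBA), which is 25% against 17.5% of all genes. Every heat library lay below in 8 (YAP1, WWTR1, SAV1, MOB1A, MYOF, AXL, F3 and NT5E), 28.6% against 19.1%. Without heat replicate 1, the library with the GC shift, edgeR called 5 higher (LATS1, MOB1B, CCN1, ANKRD1 and AJUBA), beside 14% of all genes, and 4 lower (WWTR1, MYOF, AXL and NT5E), beside 14.8%. Without heat replicate 2 it called 4 higher (AMOTL2, CCN1, CCN2 and ANKRD1), beside 4.55%, and 2 lower (MYOF and NT5E), beside 3.58%.

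CCN1 differed most among the members. It stood at 10.8, 11.3 and 13.3 CPM in the control libraries and at 113, 21.9 and 137 CPM after heat. Heat replicate 2 lay nearest to the controls and the other two far above, with no overlap. The log2 fold change was 2.95 ± 0.657 (SE), or 7.73-fold, with adjusted p = 0.106, and 2.75 (adjusted p = 0.0361) without heat replicate 1. ANKRD1 stood at 1.77, 2.83 and 3.42 CPM in the control libraries and 11.2, 5.76 and 25.6 CPM after heat (log2 fold change 2.41 ± 0.603, SE, adjusted p = 0.12). CCN2 stood at 9.92, 13.4 and 14.3 CPM in the control libraries and at 61.4, 14.0 and 55.2 CPM after heat, with heat replicate 2 inside the control range. Its log2 fold change was 1.80 ± 0.552 (SE, adjusted p = 0.151). CCN1, CCN2 and ANKRD1 thus shared the lowest heated library, replicate 2. AMOTL2 was also lowest there among the heated libraries, with 40.5, 39.6 and 42.1 CPM in the control libraries and 92.5, 50.8 and 145 CPM after heat (log2 fold change 1.25 ± 0.396, SE, adjusted p = 0.16). AJUBA, a LIM-domain protein that binds LATS kinases, differed less but more evenly, with 37.2, 37.7 and 41.7 CPM in the control libraries and 61.5, 58.7 and 67.0 CPM after heat. Its log2 fold change of 0.69 ± 0.218 (SE) did not pass with all libraries (adjusted p = 0.157) and passed without heat replicate 1 (adjusted p = 0.015).

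Other genes of the same target list had lower values after heat. MYOF stood at 580, 617 and 617 CPM in the control libraries and at 132, 228 and 226 CPM after heat, a log2 fold change of -1.62 ± 0.327 (SE, adjusted p = 0.095). NT5E stood at 207, 191 and 187 CPM in the control libraries and at 41.6, 77.6 and 67.8 CPM after heat (log2 fold change -1.64 ± 0.3, SE, adjusted p = 0.0904). In both genes the highest heated library lay far below the lowest control library. AXL stood at 111, 112 and 111 CPM in the control libraries and 60.4, 67.6 and 44.8 CPM after heat (log2 fold change -0.95 ± 0.251, SE, adjusted p = 0.123). Without heat replicate 1 all 3 passed, with log2 fold changes of -1.41, -1.42 and -0.99 (adjusted p = 0.00428, 0.00428 and 0.0193). Of the 11 tested targets, 3 lay above all control libraries (27.3%, against 17.5% of all genes) and 4 below (36.4%, against 19.1%). The median log2 fold change of these targets was -0.22, that of all genes being 0.10. The targets thus lay on both sides of 0.

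The coactivator genes were lower in all heated libraries. WWTR1 was the most even, with 184, 195 and 175 CPM in the control libraries and 99.6, 99.8 and 96.3 CPM after heat. The 3 heated libraries lay close together, the one with the GC shift among them. The log2 fold change was -0.90 ± 0.218 (SE, adjusted p = 0.116), and -0.91 (adjusted p = 0.00647) without heat replicate 1, but -0.47 (adjusted p = 0.395) with an offset for GC content and length. YAP1 stood at 133, 137 and 123 CPM in the control libraries and 48.9, 92.5 and 116 CPM after heat (log2 fold change -0.60 ± 0.347, SE, adjusted p = 0.351). Its lowest value was in the library with the GC shift. LATS2 stood at 10.4, 10.5 and 9.91 CPM in the control libraries and 13.2, 13.4 and 38.8 CPM after heat, so that its log2 fold change of 1.09 ± 0.472 (SE, adjusted p = 0.249) rests mainly on replicate 3. TEAD1 stood at 22.8 CPM in heat replicate 1 and at 73.7 and 90.9 CPM in the others, beside 70.1 to 91.9 CPM in the control libraries. MOB1B had 2.96 CPM in heat replicate 1 and 20.8 and 22.7 CPM in the others, beside 13.6 to 15.5 CPM. For both genes heat replicate 1 lay apart from the other heated libraries in the direction of the GC shift.

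The remaining pathway members passed in few fits. STK3, the second MST kinase, stood at 37.9 to 41.6 CPM in 2D, 9.67 to 30.6 CPM in 3D and 25.3 to 45.0 CPM in the animal libraries, and did not pass edgeR's test with all libraries in any of the 4 comparisons. In 3D against 2D, DESeq2 called STK3 lower (-1.0, adjusted p = 0.0302), as did edgeR without 3D replicate 3 (-1.58, adjusted p = 0.00139). Without that library STK3 was called higher in animal against 3D (1.37, adjusted p = 0.00277). The 3D libraries left in these fits are replicates 1 and 2, those with the GC shift. Of all genes, 37.5% were then called lower in 3D against 2D and 42.6% higher in animal against 3D. SAV1, the scaffold of these kinases, had 8.07 to 10.3 CPM in 2D and 13.6 to 18.0 CPM in the animal libraries (log2 fold change 0.83 ± 0.477, SE, adjusted p = 0.315). MOB1A and MOB1B, cofactors of the LATS kinases, had their lowest values in 3D replicate 2, at 34.3 and 0.218 CPM, beside 150 to 154 and 15.8 to 18.1 CPM in 2D. That library showed the strongest link of level with GC content. NF2, which encodes the membrane-linked protein merlin, stood at 44.3 to 44.9 CPM in 2D and at 47.8, 48.8 and 22.7 CPM in 3D, so that only replicate 3 lay below 2D. VGLL4, which competes with YAP for TEAD factors, stayed between 37.3 and 67.7 CPM in all 15 libraries and was called in 1 fit, that of the animal and 2D groups alone (adjusted p = 0.0287). CRIM1, a transmembrane protein listed as a YAP target, stood at 75.0 to 80.1 CPM in 2D and at 78.4 to 128 CPM in the animal libraries, and did not pass edgeR's test with all libraries in any of the 4 comparisons. It was called higher in the fit of the animal and 2D groups alone (0.50, adjusted p = 0.0369). In the fits without 3D replicate 3, described above for STK3, CRIM1 was called lower in 3D against 2D (-0.94, adjusted p = 0.00359). It was called higher there in animal against 3D (1.43, adjusted p = 0.000309).

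**Figure D4:**
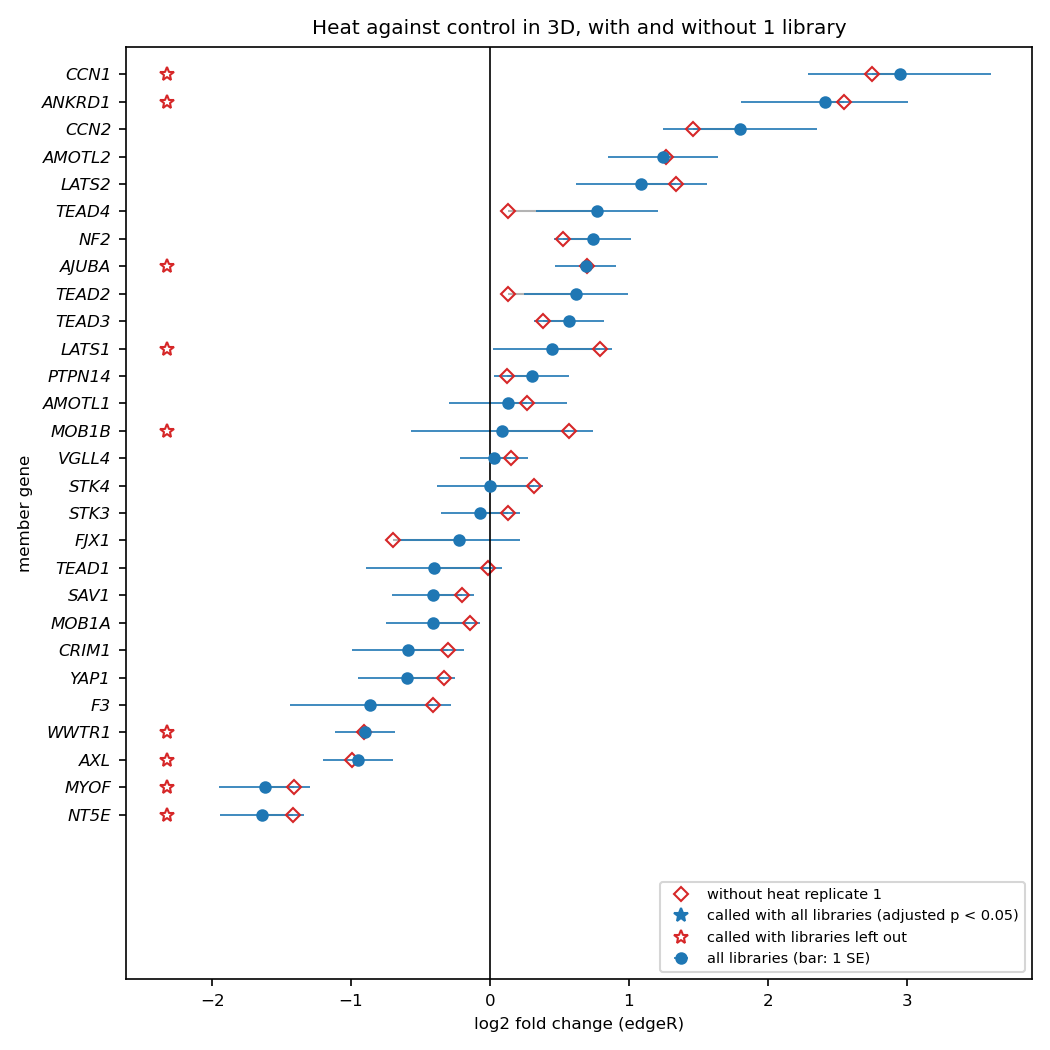
Log2 fold change (edgeR) of the 28 tested genes after heat against control in 3D; filled circles with bars of 1 SE use all 6 libraries, open diamonds leave out heat replicate 1, and stars at the left mark calls. No gene is called with all libraries, and CCN1 at 2.95 and NT5E at -1.64 lie at the ends.

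Across the 5 groups the targets did not share one pattern. ANKRD1 ran from 0.145 CPM in 3D replicate 2 to 25.6 CPM in heat replicate 3, and its control libraries of the second round lay above all 3D libraries of the first and below all 2D libraries. AXL was highest in 3D, intermediate in the 3D control libraries and lower in the rest. MYOF was high in 2D, 3D and 3D control and low in the animal and heat libraries. NT5E was high in the animal and 3D control libraries and on average lowest after heat. The 3D and 3D control groups belong to different rounds of sequencing, so that round and condition cannot be told apart between them.

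**Figure D5:**
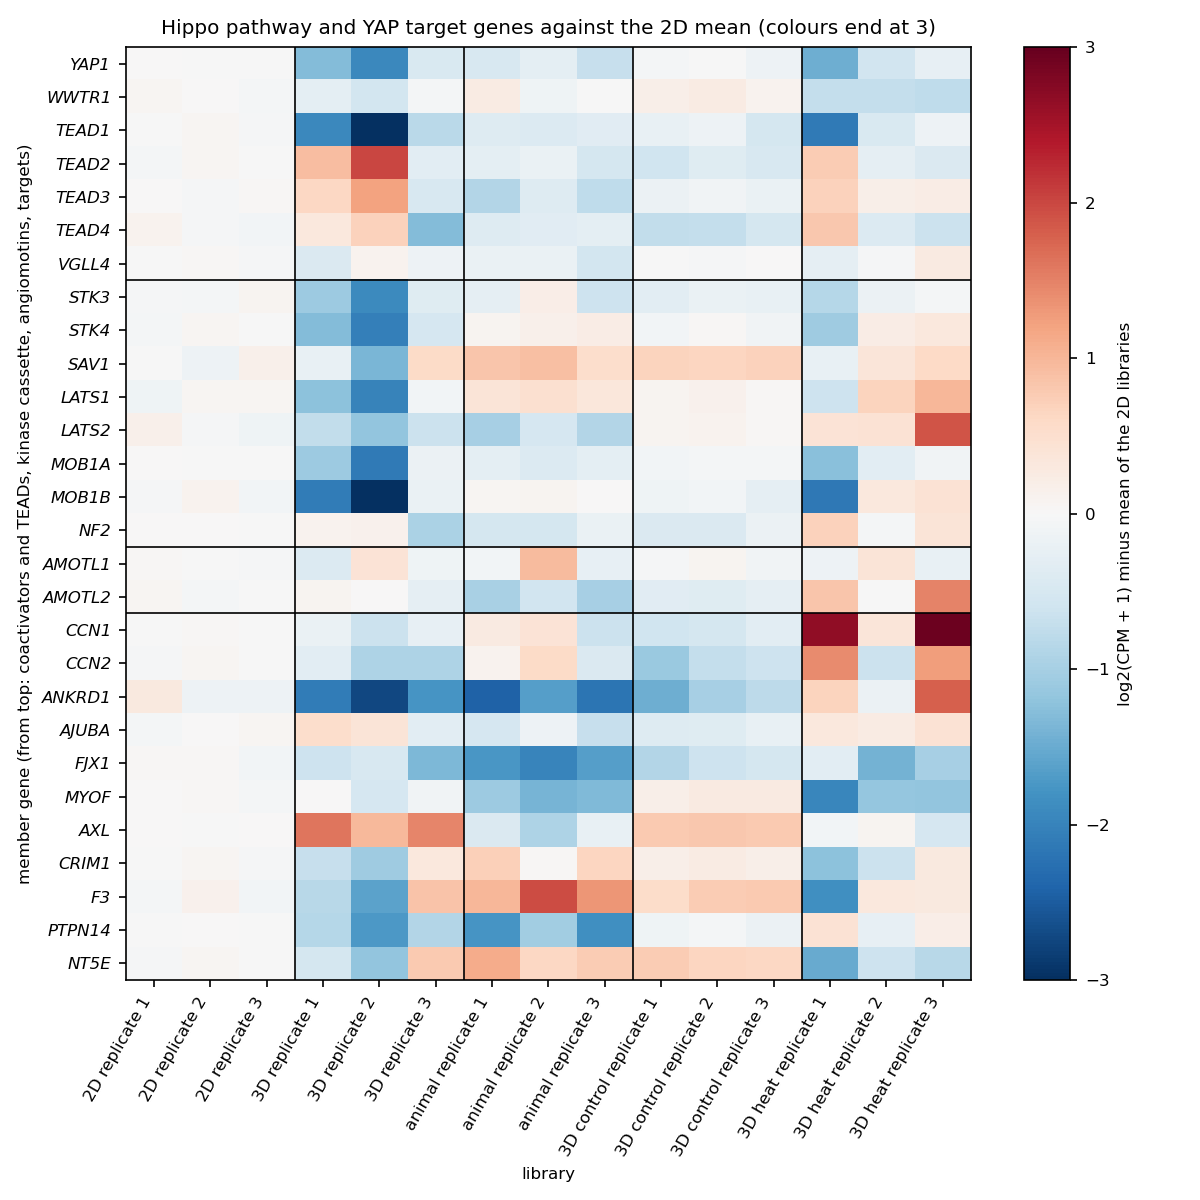
Heat map of log2(CPM + 1) minus the mean of the 2D libraries for the 28 tested genes (rows, parted by role) in the 15 libraries (columns, parted by group); red is above the 2D mean and blue below. CCN1 is reddest in heat replicates 1 and 3, ANKRD1 is blue in all 3D and animal libraries, and the columns of 3D replicates 1 and 2 and heat replicate 1 share blue TEAD1 and MOB1B and red TEAD2.

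Other genes of the pathway were read from a list of 38 further Hippo regulators, of which 36 were tested in the first round. In 3D against 2D, 3 were called higher and 7 lower (8.33% and 19.4%, against 20% and 12.9% of all genes). MAP4K4, a kinase that can act on LATS beside MST1 and MST2, stood at 186, 192 and 188 CPM in 2D and at 89.7, 83.0 and 82.0 CPM in 3D, with a log2 fold change of -1.19 ± 0.184 (SE, adjusted p = 0.00285). It was as low in 3D replicate 3 as in the 2 libraries with the GC shift. WWC1, which encodes the scaffold KIBRA, stood at 28.9, 29.2 and 28.0 CPM in 2D and 14.9, 15.6 and 8.65 CPM in 3D (log2 fold change -1.18, adjusted p = 0.0173). CSNK1E, a casein kinase, rose by 0.79 on the log2 scale (adjusted p = 0.00755). In animal against 2D, 2 were called higher and 3 lower (5.56% and 8.33%, against 7.78% and 4.25%). FAT1, a giant protocadherin, stood at 396, 351 and 338 CPM in the animal libraries, all below the lowest 2D library at 619.6 CPM, with a log2 fold change of -0.85 (adjusted p = 0.00969). WWC3 and DLG5 fell by 0.88 and 1.1 (adjusted p = 0.013 and 0.0229). FAT4, another protocadherin, was called higher (adjusted p = 0.0148) on few reads, with 0.84 to 2.92 CPM in the animal libraries and 0.0534 to 0.16 CPM in 2D. In animal against 3D, 7 were called higher and 7 lower (19.4% each, against 18.6% and 22.9%), among them WWC1 and MAP4K4 with log2 fold changes of 1.41 and 0.79 (adjusted p = 0.00695 and 0.00976) and CSNK1D with -1.11 (adjusted p = 0.00622). After heat edgeR called 0 of 35, with 2 higher and 5 lower at an unadjusted p below 0.05 (beside 11.8% and 8.97% of all genes), and DESeq2 called 2 higher and 1 lower (beside 6.8% and 5.51%).

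A second list held 20 further YAP or TEAD targets, of which 18 were tested in the first round. In 3D against 2D, 2 were called higher and 5 lower (11.1% and 27.8%, against 20% and 12.9% of all genes). IGFBP3, a binding protein of insulin-like growth factors, stood at 23.3, 33.0 and 34.5 CPM in 2D and at 405, 286 and 870 CPM in 3D, a log2 fold change of 4.08 ± 0.529 (SE, adjusted p = 0.00168). GADD45B, a stress-response gene, stood at 18.2, 20.7 and 21.0 CPM in 2D and 113, 98.2 and 81.3 CPM in 3D (log2 fold change 2.24, adjusted p = 0.00106). Both rises were far outside the spread of the libraries. TGFB2, a transforming growth factor ligand, and THBS1, the matrix protein thrombospondin-1, fell by 2.12 and 1.70 on the log2 scale (adjusted p = 0.00245 and 0.00475). In animal against 2D, 3 were called higher and 3 lower (16.7% each, against 7.78% and 4.25%). IGFBP3 stood at 284, 108 and 215 CPM in the animal libraries, with a log2 fold change of 2.74 (adjusted p = 0.00851). AREG, the EGF receptor ligand amphiregulin, and GADD45A fell by 1.69 and 1.05 (adjusted p = 0.01 and 0.0111). SLIT2, a secreted guidance protein, had 92 reads in the animal libraries and 3 in 2D, a ratio of 36.1 after scaling with a 95% Clopper-Pearson interval of 12 to 178, which covers counting error only. In animal against 3D, 4 were called higher and 3 lower (22.2% and 16.7%, against 18.6% and 22.9%), with GADD45B at -2.01 (adjusted p = 0.000911), THBS1 at 1.90 (adjusted p = 0.00221) and INHBA, an activin subunit, at 3.54 (adjusted p = 0.0131) on the log2 scale. INHBA did not pass without 3D replicates 1 and 2 (2.34, adjusted p = 0.0892). After heat edgeR called 0 of 17, with 3 higher and 4 lower at an unadjusted p below 0.05, and DESeq2 called 2 higher and 4 lower, beside the same shares of all genes as above.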

How the data were processed

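Per the labels' protocols, mRNA was fragmented, primed with random hexamers and sequenced as single-end reads of 50 bases; no step marks the strand. The submitters' processing notes name HISAT2 and hg19. The counting program, annotation and removal of host reads are not given in the sources used here. The files hold raw counts of reads for each gene symbol in 15 columns, used as deposited by the authors.

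The tests ran in edgeR 4.0.16 (R 4.3.3): filterByExpr by group, TMM scaling and a robust quasi-likelihood fit of group alone, for the first 9 libraries and separately for the 6 of the heat experiment. All p-values were adjusted over all genes tested (Benjamini-Hochberg, threshold 0.05) and come from edgeR unless DESeq2 1.42.0 is named. The model was tested on simulated counts with 200 genes changed 4-fold. For the first experiment it recovered 64.5% of them, with 7 calls among unchanged genes. For the heat experiment it recovered 47.5%, with 6 such calls. The simulated libraries held no GC shift, so these figures do not cover its effect on the calls. GC content and length come from the longest protein-coding GENCODE 29 transcript of each gene (99.5% of tested genes). Coordinates were not taken from it, since its build is not hg19. Promoters are RefSeq, GRCh38.p14. Alternatives were DESeq2, 2 other scalings, no filter or at least 10 reads, only the 2 groups compared, a replicate block, a GC and length offset (splines, 5 degrees of freedom), and libraries left out. Every member was named, with the 4 called genes of smallest adjusted p from each further list and comparison, of which 1 is not reported here. Members and lists were chosen with earlier results of these data known.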

Additional observations from a re-analysis of the deposited data

How the results depend on the processing

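Of the counts of members called, DESeq2 gave 2 higher and 8 lower in 3D against 2D (beside 26.2% and 17.4% of all genes). It gave 1 higher and 6 lower in animal against 2D (beside 11.2% and 7.86%). In animal against 3D it gave 5 higher and 7 lower (beside 23% and 28.6%). After heat it gave 5 higher and 4 lower (beside 6.8% and 5.51%). With no filter on low counts 2 were higher in 3D against 2D (beside 13.9% of all genes). With only the 2 groups compared, 2 were lower in 3D against 2D (7.14% of the 28 tested, beside 6.44% of all genes). The same setting gave 5 higher and 16 lower in animal against 2D (beside 29.5% and 27.9% of all genes). In animal against 3D it gave 0 higher and 2 lower (beside 7.85% and 13.8%). The offset for GC content and length gave 1 higher and 9 lower in animal against 2D (beside 12.6% and 19% of all genes), and 4 higher and 3 lower after heat (beside 5.49% and 5.58%). Leaving out 3D replicates 1 and 2 together left 1 library in the 3D group. The median log2 fold change of the members was then -0.29 in 3D against 2D, beside 0.01 for all genes. In animal against 3D it was 0.06, beside 0.06 for all genes. With any single 3D, 2D or animal library left out, the count of members called was 1 to 4 higher and 1 to 15 lower in 3D against 2D, 0 higher and 2 to 5 lower in animal against 2D, and 1 to 13 higher and 3 to 9 lower in animal against 3D, the highest counts in the comparisons with 3D coming without 3D replicate 3, beside 34.7% (higher) and 37.5% (lower) of all genes for the first of them and 42.6% and 34.5% for the other. The lowest count of 1 lower in 3D against 2D came without 3D replicate 1 and without each of the 2D libraries. Of all genes, 8.58 to 9.25% were called higher and 5.02 to 5.52% lower without a 2D library, and 12.3% and 6.06% without 3D replicate 1. In animal against 2D, single left-out libraries gave 3.38 to 5.88% of all genes higher and 1.51 to 2.96% lower. In animal against 3D, those other than 3D replicate 3 gave 10.5 to 16.2% higher and 14.8 to 18.8% lower. After heat, single left-out libraries gave 0 to 5 higher and 0 to 4 lower, with calls only without heat replicate 1 or 2. The cause was not tested.

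Replicate numbers did not pair the libraries, with same-number correlations of -0.294 to 0.233. As a replicate block they gave 3 members lower in 3D against 2D (beside 10.5% of all genes). In animal against 2D they gave 2 lower (beside 2.49%). Apart from the fits without 3D replicates 1 and 2 together, no other count of members moved by over 1.5 times.

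Signs turned with a call in 9 cases, all in comparisons with 3D. In 3D against 2D, TEAD4 was at -1.13 with the offset and at -1.40 without 3D replicates 1 and 2, and SAV1 and NT5E were at 0.61 and 0.78 without them, on the log2 scale. In animal against 3D, the offset gave WWTR1 -0.90, MOB1A -0.80 and TEAD4 0.66, and leaving out those libraries gave TEAD4 1.02 and NF2 0.54. Genes under about 3 reads per library, such as AMOT and DLC1, allow no statement at this depth.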
